A study of Arabidopsis thaliana with 21 samples.

Results

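Protein-coding genes of Arabidopsis thaliana were sorted by which of the DNA-binding proteins AZF1 and BPC1 had an enriched region at them in chromatin immunoprecipitation followed by sequencing (ChIP-seq). A gene was assigned to a protein when the summit of at least 1 of its regions, the position of highest enrichment, lay in the gene or within 1 kb of it. Chromosome 2 from 3 to 4 Mb was left out, with 360 BPC1 and 123 AZF1 regions in it. Of the remaining 27323 genes, 1762 (6.45%) were assigned to AZF1 only, 605 (2.21%) to BPC1 only and 907 (3.32%) to both, which makes 3274 target genes. In all, 9.77% of genes were AZF1 targets and 5.53% were BPC1 targets. The AZF1 list is the longer one, and cut to the length of the BPC1 list by −log10 q it gave 630 AZF1-only and 890 BPC1-only genes, so the order of the class sizes depends on list length.

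The AZF1 samples were 3 replicates of Col plants with the transgene gAZF1-Myc, and the BPC1 samples 3 replicates of Col plants with gBPC1-Myc. Both were precipitated with the same anti-Myc antibody from untreated plants aged 30 h that were kept in long days (16 h light, 8 h dark). The labels name no mutation of the plants' own AZF1 or BPC1 gene, and no promoter or number of lines for either transgene. The Col input, to which the series design refers both proteins, came from the gAZF1-Myc line. FIE was precipitated through an HA tag from C24 plants with pFIE:FIE-HA in fie-11, against C24 input of that line, and the histone mark H3K27me3 from Col plants without a transgene, against total histone H3. The deposited lists hold 1 pooled set of regions per protein. The replicates cannot be compared in them, so differences are described and were not tested. Read counts are not among their columns, and sequencing depth is therefore unknown. Every listed region has a −log10 q of 10 or more, q being the caller's adjusted p-value, so a gene outside a list may still be bound below that limit.

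AZF1 is a zinc finger protein of the C2H2 class, several of whose members are known for repressing genes in responses to drought, salt and abscisic acid. BPC1 belongs to the BASIC PENTACYSTEINE family of plants, whose members bind GA repeats and are known for their part in ovule, flower and meristem development. Both kinds of protein are known as candidates for recruiting Polycomb repressive complex 2 (PRC2) to DNA. PRC2 places the mark H3K27me3 on histone H3, which keeps developmental genes silent outside their proper tissue, and FIE is its WD40 subunit.

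The genes assigned to BPC1 only and those assigned to AZF1 only differed in what else was found at them. FIE had a summit at 330 of 605 BPC1-only genes, or 54.5% (95% Wilson interval 50.6 to 58.5). Among AZF1-only genes it was 217 of 1762, or 12.3% (10.9 to 13.9). The difference was 42.2 percentage points, with a Newcombe interval of 37.9 to 46.4. Genes of both factors were close to the BPC1-only genes, with 48.4% (45.2 to 51.7) at FIE. Genes with neither factor had FIE in 6.53% of cases, and all protein-coding genes in 9.36%. All these intervals cover counting error over genes only. Genes that lie side by side can be assigned through 1 shared region, which the intervals leave out of account. The spread between replicates cannot be measured in these lists.

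H3K27me3 followed the same order. A marked region touched the gene or its 1 kb flanks in 57.0% of BPC1-only genes (53.0 to 60.9), 52.4% of genes of both (49.1 to 55.6) and 26.6% of AZF1-only genes (24.6 to 28.7). The last share was within 0.826 points (interval -1.26 to 3.01) of the 25.7% among genes with neither factor, and all genes had 27.4%. Between BPC1-only and AZF1-only genes the difference was 30.5 points (26.0 to 34.8). With the shorter AZF1 list, FIE was at 13.7% of AZF1-only and 52.2% of BPC1-only genes, and the mark at 26.5% and 55.5%. FIE and the mark stood together at 45.1% of BPC1-only genes, 34.0% of genes of both and 6.07% of AZF1-only genes. Of AZF1-only genes, 67.2% had neither, against 33.6% of BPC1-only genes and 33.2% of genes of both.

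**Figure D1:**
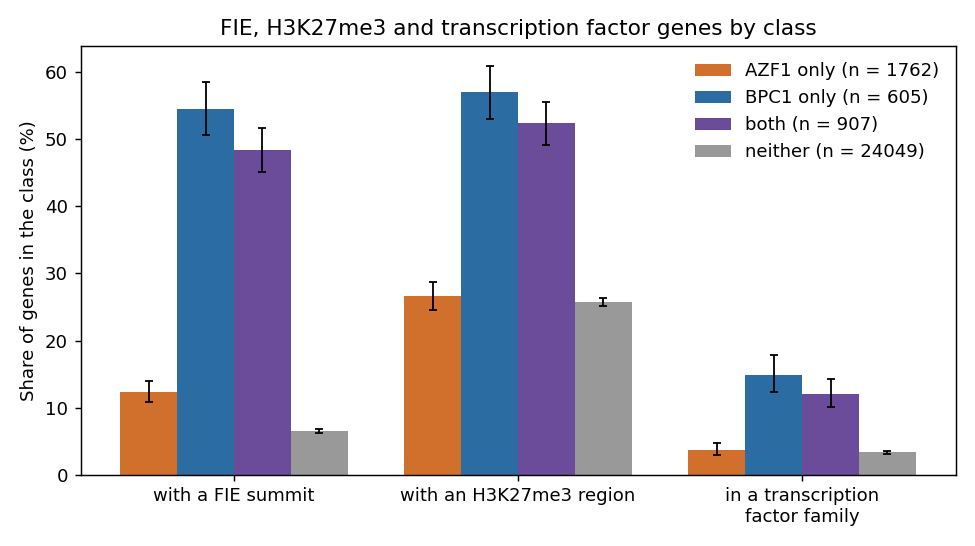
Share of genes (%) with a FIE summit, with an H3K27me3 region or in a transcription factor family, for genes assigned to AZF1 only, BPC1 only, both or neither; bars are shares and lines 95% Wilson intervals. The AZF1-only bars (12.3%, 26.6% and 3.69%) lie far below those of BPC1 only (54.5%, 57.0% and 14.9%).

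The kinds of gene differed as well. Families were matched by gene symbol, which named 2856 genes in 62 families, 1058 of them in 26 families of transcription factors or their partners. These are the members that carry a matching symbol and not whole families, and 16955 of the 27323 genes have no symbol beside the locus tag. A symbol was present for 43.6% of BPC1-only, 43.9% of both and 40.1% of AZF1-only genes. Transcription factor families held 90 of 605 BPC1-only genes (14.9%, interval 12.3 to 17.9), 109 of 907 genes of both (12.0%, 10.1 to 14.3) and 65 of 1762 AZF1-only genes (3.69%, 2.90 to 4.67). Genes with neither factor were at 3.30%. The difference between BPC1-only and AZF1-only genes was 11.2 points (8.39 to 14.3).

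Read the other way, from the families to the factors, 8.51% of transcription factor genes (interval 6.97 to 10.3) were BPC1 only, against 2.21% of all genes. For both factors it was 10.3% (8.61 to 12.3) against 3.32%. For AZF1 only it was 6.14% (4.85 to 7.76), which is close to the 6.45% of all genes. In housekeeping families (ribosome, proteasome, ubiquitin conjugase, RNA-binding, photosystem, cytoskeleton, chaperone, histone and embryo-essential genes), 6.40% of 531 genes were AZF1 only and 1.13% (0.519 to 2.44) BPC1 only. In cell wall families, 11.2% of 178 genes (7.39 to 16.7) were AZF1 only and 4.49% (2.29 to 8.62) BPC1 only. Signalling, metabolism and transport families held 4.39%, 5.09% and 6.64% AZF1-only genes, and 1.15%, 2.41% and 3.85% BPC1-only genes. Of 25 transcription factor families with at least 10 matched members, 11 had more genes in BPC1 only than in AZF1 only, 8 had fewer and 6 had equal counts. Of the 34 other families of that size, 2 had more in BPC1 only, 23 had more in AZF1 only and 9 had equal counts. Since AZF1 only is the larger class, equal counts in a family already stand for a larger share of the BPC1-only class.

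**Figure D2:**
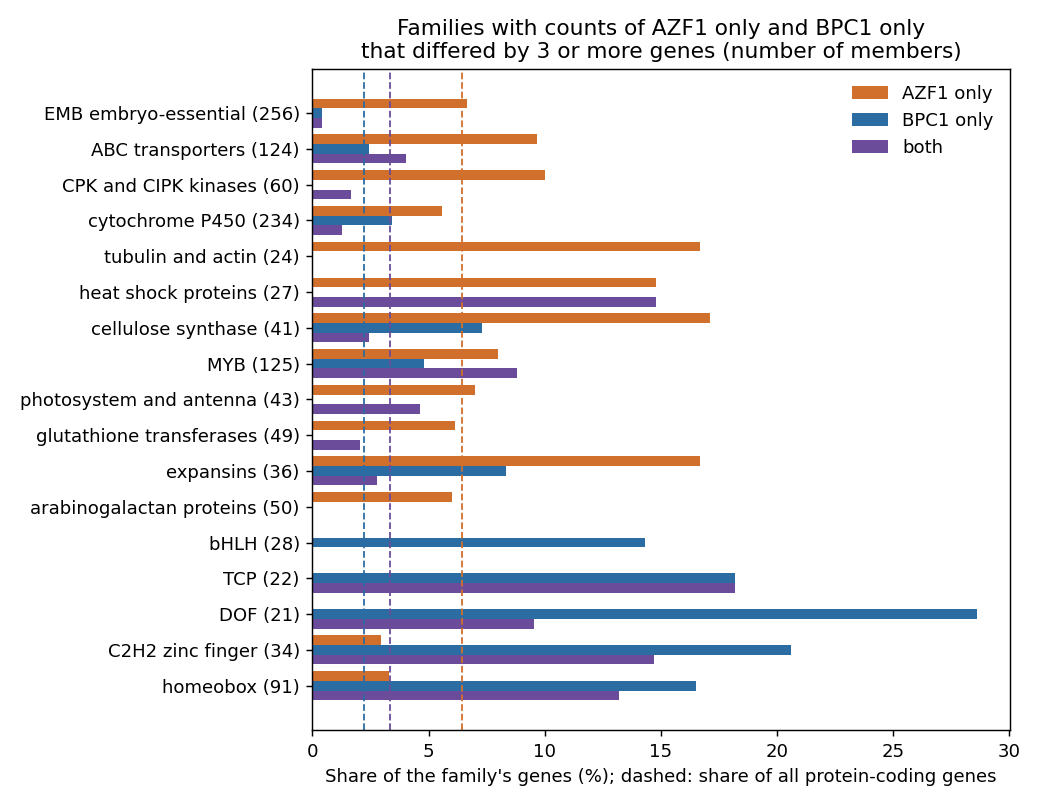
Share (%) of each family's matched genes, with the number of members in brackets, that were assigned to AZF1 only, BPC1 only or both, for families whose AZF1-only and BPC1-only counts differed by 3 or more, 1 of which is not shown; dashed lines are the shares of all protein-coding genes (6.45%, 2.21% and 3.32%). Homeobox, DOF, C2H2 and TCP genes stand beyond the BPC1-only line, and EMB genes lie under it with 0.391%. The cytoskeleton and kinase families, of 24 and 60 genes, have 0 BPC1-only genes, but at their size that line stands for few genes.

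Homeobox genes, which encode regulators of meristems, organ boundaries and the epidermis, differed most between the classes by number of genes among transcription factor families of 10 or more matched members. Of 91, 15 were BPC1 only (16.5%), 12 both and 3 AZF1 only (3.30%). By share of the family's matched genes, the BPC1-only excess was larger for DOF (28.6% against 0%), C2H2 (20.6% against 2.94%), TCP (18.2% against 0%) and bHLH genes (14.3% against 0%). The BPC1-only members included the stem cell gene WUS (BPC1 fold enrichment over input 3.71), the KNOX genes KNAT6 (3.64) and KNAT1 (2.83), and the epidermal genes PDF2 (3.43) and ATML1 (3.25). The highest BPC1 fold among them was 5.14 at HB-3 (AT5G15150), in a region on chromosome 5 from 4914863 to 4915295. FIE was at 14 of the 15, with H3K27me3 at 13. The members of both included STM, which maintains the shoot meristem, with an AZF1 fold of 3.43 and a BPC1 fold of 4.39, and GL2, a regulator of root hairs and trichomes, with 3.72 and 3.86. The AZF1-only members were the leaf polarity gene PHB (AZF1 fold 3.88), the embryo patterning gene WOX2 (2.94) and BLH1 (2.41). Each fold is the authors' value for the gene's highest region and is read within its own list.

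DOF proteins are plant zinc finger factors active in vascular tissue, seeds and light responses. Of 21 matched, 6 were BPC1 only (28.6%, against 2.21% of all genes), 2 were both and 0 were AZF1 only. The BPC1-only members were OBP3 (4.30), DOF6 (3.75), TMO6 (3.69), DOF2.4 (3.68), AT4G00940 (3.56) and OBP4 (3.23). All 6 had FIE and H3K27me3, as did DAG1 and OBP2, the matched members of both. DOF genes without a matching symbol were not counted, so these counts do not describe the whole family. TCP genes, which control leaf shape and branching, were split in the same way: of 22, 4 were BPC1 only, 4 were both and 0 were AZF1 only, and these 8 had FIE and H3K27me3. The BPC1-only members were TCP2 (4.01), PTF1 (3.66), TCP10 (3.23) and BRC1 (2.93), the last of which holds axillary buds at rest. Of 28 bHLH genes matched by their family symbol, 4 were BPC1 only and 0 of these 28 belonged to the other 2 classes. Genes of the bHLH family without a matching symbol were not counted, so this 0 does not describe the whole family. The 4 BPC1-only bHLH genes were AT1G72210 (4.09), BNQ2 (3.60), PIL6 (3.32) and BHLH32 (2.70). The BPC1-only shares were 18.2% of TCP and 14.3% of bHLH genes. In families this small the shares of all genes, 6.45% AZF1 only and 3.32% both, stand for few genes, so counts of 0 are near them.

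Of 34 matched genes of the C2H2 class, to which AZF1 itself belongs, 21 were assigned to neither factor. The others were 7 BPC1 only (20.6%, against 2.21% of all genes), 5 both and 1 AZF1 only (2.94%, against 6.45%). C2H2 genes without a matching symbol were not counted, so these counts do not describe the whole class. The 7 matched BPC1-only genes were largely of the IDD group, which takes part in root and shoot patterning. They were IDD16 (5.13), JKD (3.90), IDD4 (3.82), MGP (3.43) and IDD14 (3.41), followed by ZFP8 (3.31) and ZAT7 (3.03). FIE was at 6 of these 7, and H3K27me3 at all 7. The AZF1-only gene was RHL41 (also ZAT12), a regulator of light and oxidative stress responses, with an AZF1 fold of 3.85 and neither FIE nor the mark.

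In several large regulator families the AZF1-only and BPC1-only counts were close, or their order depended on how regions were chosen and assigned. MYB genes were 10 AZF1 only, 6 BPC1 only and 11 both, of 125. The order was reversed with the AZF1 list cut to the length of the BPC1 list. It was also reversed with regions above each list's median −log10 q and with the summit required inside the gene. NAC genes were 9, 7 and 10 of 100, AP2/ERF genes 7, 6 and 5 of 68, and WRKY genes 5, 5 and 6 of 72, in the same sequence of classes. With that shorter AZF1 list the order of the NAC and AP2/ERF genes was reversed as well. Within these families the classes had different counts at FIE. Of the WRKY genes, 0 of 5 AZF1-only members had FIE against 5 of 5 BPC1-only members. Of the MYB genes it was 2 of 10 against 5 of 6, of the AP2/ERF genes 2 of 7 against 5 of 6, and of the NAC genes 3 of 9 against 5 of 7. Examples are the trichome gene MYB23 (BPC1 fold 5.35, FIE fold 13.2), whose BPC1 summit was 96 bp and FIE summit 95 bp outside the gene, and the secondary wall gene NST1 (3.89 and 12.3). On the AZF1 side were MYB16 (AZF1 fold 4.25), a regulator of epidermal cell shape, and DREB2A (3.37), a regulator of drought and heat responses, both without FIE and the mark.

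Across all transcription factor families together, FIE was at 77 of 90 BPC1-only genes (85.6%, interval 76.8 to 91.4), 91 of 109 genes of both (83.5%, 75.4 to 89.3) and 21 of 65 AZF1-only genes (32.3%, 22.2 to 44.4). H3K27me3 was at 80.0%, 84.4% and 36.9% of them. Transcription factor genes with neither factor had FIE in 19.1% and the mark in 36.0% of cases. The contrast in FIE and the mark was also present outside these families: among all other genes FIE was at 49.1% of BPC1-only and 11.5% of AZF1-only genes, a difference of 37.6 points (interval 33.0 to 42.1). For the mark it was 53.0% against 26.2%, a difference of 26.9 points (22.0 to 31.6).

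The families outside the transcription factors are read here against the shares of all genes, 6.45% for AZF1 only and 2.21% for BPC1 only, since AZF1 only is the larger class. EMB genes, named for embryo lethality in mutants and mostly of basic cellular functions, had 17 AZF1-only members of 256, with 1 BPC1 only and 1 both. Their AZF1-only share of 6.64% was near that of all genes. Their BPC1-only share of 0.391% was under the 2.21% of all genes. The share of EMB genes in both, also 0.391%, was under the 3.32% of all genes. The highest AZF1 folds were at ORC5 (3.83), a subunit of the origin recognition complex, and BTS (3.77), a regulator of iron responses. They were followed by emb1441 (3.44), emb2738 (3.21), EMB2754 (3.15) and MTA (3.12), the RNA methyltransferase that places N6-methyladenosine. Among the 17, 3 had FIE and 4 the mark. CPK and CIPK genes, calcium-regulated kinases, were 6 AZF1 only, 0 BPC1 only and 1 both, of 60. They included CPK29 (3.43), SIP3 (3.06), CPK28 (3.04) and CPK4 (2.46), a kinase of abscisic acid signalling. Tubulin and actin genes were 4 AZF1 only (16.7%) of 24, with 0 in the other classes: TUA2 (3.46), TUB8 (3.08), ACT9 (2.83) and TUB3 (2.46). In families of 60 and 24 genes the 2.21% of all genes stands for few genes, so their counts of 0 BPC1-only genes are near it.

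Of 27 heat shock protein genes, 4 were AZF1 only (14.8%, against 6.45% of all genes) and 4 were both (14.8%, against 3.32%). The count in BPC1 only was 0, where the 2.21% of all genes stands for few of 27. With the AZF1 list cut to the length of the BPC1 list, 1 was AZF1 only, 1 BPC1 only and 3 both. None of the 8 had a FIE summit. The genes of both had their highest folds at HSP70 (AT3G12580), with 4.65 for AZF1 and 5.07 for BPC1, followed by HSP81-2 (3.19 and 3.62) and HSP90.1 (3.63 and 3.48). The AZF1-only genes were CLPB4 (3.32), Hsp70b (3.07), cpHsc70-2 (2.73) and Hsp89.1 (2.51).

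In the cell wall, cellulose synthases and expansins exceeded the shares of all genes in both single classes. Their median gene lengths were 4109 bp and 1664 bp, against 2052 bp for genes with neither factor. The part of gene length in these shares was not tested. Cellulose synthase and synthase-like genes were 7 AZF1 only (17.1%, against 6.45% of all genes), 3 BPC1 only (7.32%, against 2.21%) and 1 both, of 41. With the AZF1 list cut to the length of the BPC1 list they were 3 and 3 in the single classes. The AZF1-only genes included CESA6 (2.94) and CESA1 (2.21), which build the primary wall, IRX1 (2.51), which builds the secondary wall, and CESA10 (3.80). Expansins, which loosen walls during growth, were 6 (16.7%), 3 (8.33%) and 1 of 36. EXPA16 had the highest AZF1 fold among them, 4.57, in a region on chromosome 3 from 20575678 to 20575795 inside the gene. The BPC1-only expansins were EXPA12 (4.15), EXPA7 (3.96) and EXPA13 (3.70), of which 0 had FIE. Arabinogalactan protein genes were 3 AZF1 only, a share near that of all genes, and 0 in the other classes, of 50. For those classes too the shares of all genes stand for few of 50 genes.

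ABC transporters were 12 AZF1 only (9.68%), 3 BPC1 only (2.42%) and 5 both, of 124, led by ABCG42 (3.43) and by ABCB3 and ABCB5 (both 3.39), which share 1 region. With the AZF1 list cut to the length of the BPC1 list, their AZF1-only and BPC1-only counts were equal. The median gene length of this family was 4609 bp. The genes of both included PEN3, a carrier of defence compounds at the cell surface, with 3.94 for AZF1 and 3.79 for BPC1. Cytochrome P450 genes were 13 AZF1 only (5.56%), 8 BPC1 only (3.42%) and 3 both, of 234, which is below the AZF1-only and above the BPC1-only share of all genes. The order of the counts was reversed with the shorter AZF1 list. Their AZF1-only members held 3 of the CYP707A genes, which degrade abscisic acid: CYP707A3 (3.20), CYP707A1 (2.94) and CYP707A2 (2.56). The BPC1-only members held the growth genes CYP78A9 (3.77) and CYP78A5 (2.94), and CYP79B2 (3.59), an enzyme of indole glucosinolate synthesis.

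Gene lists put together by function were counted in the same way. They are read against the shares of all genes, 6.45% AZF1 only, 2.21% BPC1 only and 3.32% both. In the shorter lists these shares stand for few genes, so counts of 0 are near them. Of 48 flower and meristem genes, 21 were both (43.8%), 11 BPC1 only (22.9%) and 5 AZF1 only (10.4%). FIE was at 20 of the 21, 10 of the 11 and 4 of the 5. The AZF1-only genes were PHB (3.88), KAN3 (3.58), YAB2 (3.24), CLV3 (3.04) and AS1 (2.50), so the stem cell gene WUS and its repressor CLV3 fell into opposite classes. Of 28 abscisic acid genes, 4 were AZF1 only, 1 BPC1 only and 3 both. This order was reversed with the shorter AZF1 list, which left 0 AZF1 only, 2 BPC1 only and 2 both, and regions above the median −log10 q left 0, 0 and 2. The AZF1-only genes were the 3 CYP707A genes and ABI4 (2.88), a transcription factor of the response. The BPC1-only gene was ABI3 (3.45) and the genes of both were ABI5 (4.85 for AZF1 and 4.25 for BPC1), LTI65 (3.15 and 2.98) and ABF3 (2.57 and 2.53). Of 24 ethylene genes, 3 were AZF1 only (12.5%) and 0 were in the other classes. The AZF1-only genes were the receptors ETR1 (2.92) and ETR2 (2.78) and the synthase ACS11 (2.85). None of the 24 was assigned to either factor with the shorter AZF1 list, nor when only regions over each list's median −log10 q were kept. Of 23 root and root hair genes, 4 were BPC1 only, 3 both and 2 AZF1 only. The BPC1-only genes were JKD, FEZ (3.81), PLT1 (3.55) and MGP, and the AZF1-only genes MYB66 (2.92), which specifies hairless root cells, and NAC070 (2.49). Of 19 gibberellin genes 2 were both, GA3OX3 and GA20OX2, and 0 were in the single classes. None of 17 jasmonate genes and none of 21 telomere and DNA replication genes was assigned to either factor. At the shares of all genes, lists of this size would hold few target genes. Among 30 chromatin genes, the PRC2 subunit gene EMF2 was BPC1 only (3.80, on chromosome 5 from 20825152 to 20825292), without FIE or the mark. The remodeller gene SYD (3.47) and ATX2 (3.26), a methyltransferase gene, were AZF1 only, and MET1 and EMF1 were both. The lists were chosen with earlier results of these data known, and their counts are a description.

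The genes with the highest folds in each class showed the same contrast. Among the 10 AZF1-only genes with the highest AZF1 fold, 2 had FIE, 0 had H3K27me3 and 0 were in a transcription factor family. They were led by AT5G67460 with 5.73, through a region of chromosome 5 from 26919422 to 26921510 that lies beside the AZF1 gene itself (symbol ZF1). The summit was 1182 bp outside ZF1 and 223 bp outside AT5G67460, so ZF1 was assigned to neither factor. These plants and their input carry an added copy of AZF1, and its part in this fold was not tested. Next came AT2G06420 (4.74), AT2G30540 (4.60), RAD23C (4.58), which encodes a shuttle of ubiquitinated proteins, EXPA16 and TPS-CIN (4.45), a terpene synthase gene. The AZF1 summit of RAD23C lay 835 bp outside it and inside LBD41, a transcription factor gene of both with a FIE fold of 6.90. The other 4 were AT4G11230 (4.45), AT3G52790 (4.38), and the neighbours GK-1, a guanylate kinase gene, and AT2G41890, which share 1 AZF1 region with a fold of 4.31 and 1 FIE region with a fold of 4.18. Of these 10 AZF1-only genes, 6 had no symbol beside the locus tag, as had 6 of the 10 BPC1-only genes of highest BPC1 fold.

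All of the 10 BPC1-only genes with the highest BPC1 fold had FIE and the mark, and 4 were transcription factor genes. They were AT4G16550 (5.56), AT5G65590 (5.37), MYB23 (5.35), AT4G16545 (5.30), JLO (5.16), an organ boundary gene, the neighbours AT2G43660 and AT2G43670 (5.14, 1 shared region), HB-3, IDD16 and AT5G61120 (5.01). Their FIE folds ran from 7.90 at AT4G16545 to 15.7 at AT2G43660. At MYB23 the BPC1 region lay on chromosome 5 from 16127512 to 16127723, inside a FIE region from 16127190 to 16128611, and the H3K27me3 region was 18287 bp wide. BPC1 itself was a BPC1-only gene through a region with a fold of 2.29, 442 bp outside the gene. The gBPC1-Myc plants carry an added copy of the gene that the gAZF1-Myc input does not, and reads of that copy and binding beside the gene cannot be told apart.

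The 10 genes of both with the smallest sum of ranks by AZF1 and BPC1 fold all had FIE, and 9 had the mark. They were EMF1 (5.64 for AZF1 and 11.8 for BPC1), AG (5.21 and 8.92), the neighbours AT3G06435 and AT3G06436 (5.03 and 8.12), NAC067 (5.13 and 6.80), LRP1 (5.20 and 6.65), JAG (4.82 and 6.64), AT1G02210 (5.43 and 5.14), AFO (4.48 and 5.93) and EIR1 (5.83 and 4.97). JAG and AFO are regulators of leaf and petal growth and organ polarity, and EIR1 carries auxin in the root tip. AT1G02210 was the gene without the mark. At JAG the AZF1 summit lay at position 25685494 of chromosome 1 and the BPC1 summit at 25685496. The highest FIE summit was at 25686317, some distance away.

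**Figure D3:**
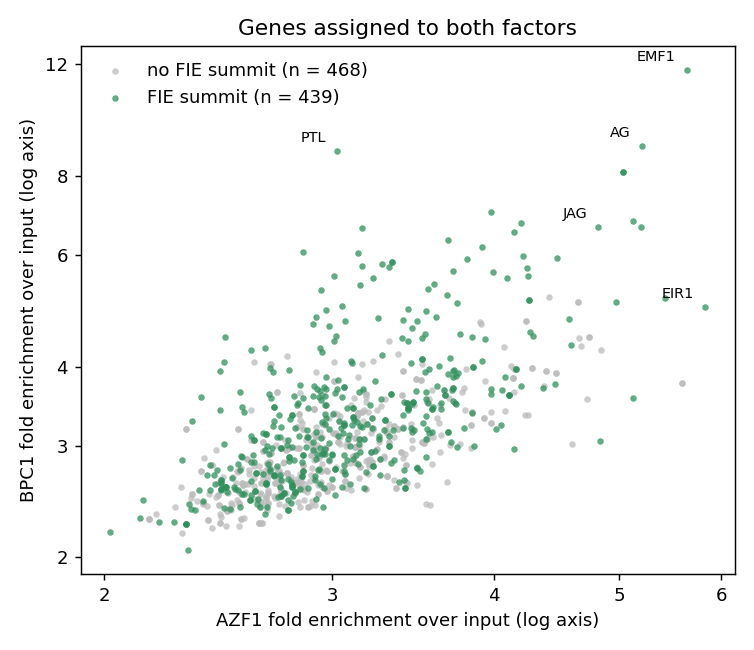
AZF1 against BPC1 fold enrichment over input (both axes logarithmic) for the 907 genes assigned to both factors, each point a gene, green with and grey without a FIE summit. EMF1 (BPC1 fold 11.8), AG (8.92) and PTL (8.77) are green. Of the highest tertile by BPC1 fold 64.5% are green, and of the lowest tertile 37.8%. RAP2.4, with 4.41 for AZF1 and 5.16 for BPC1, is grey.

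In genes of both, the summits of the factors mostly coincided. The nearest AZF1 and BPC1 summits were a median of 4 bp apart, with quartiles of 1 and 14 bp. They were at most 50 bp apart in 854 of 907 genes (94.2%), over 50 and up to 200 bp apart in 7, over 200 and up to 1000 bp apart in 18, and over 1000 bp apart in 28. FIE was at 48.7% of the genes with summits at most 50 bp apart. The folds ranked alike, with a Spearman rho of 0.660 and a Pearson r of 0.651 of the log2 folds over the 907 genes. This correlation is across genes that share regions, input and antibody, and no p-value is given. Whether coinciding summits stem from joint binding or from the shared input, tag and antibody cannot be told apart in these lists.

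**Figure D4:**
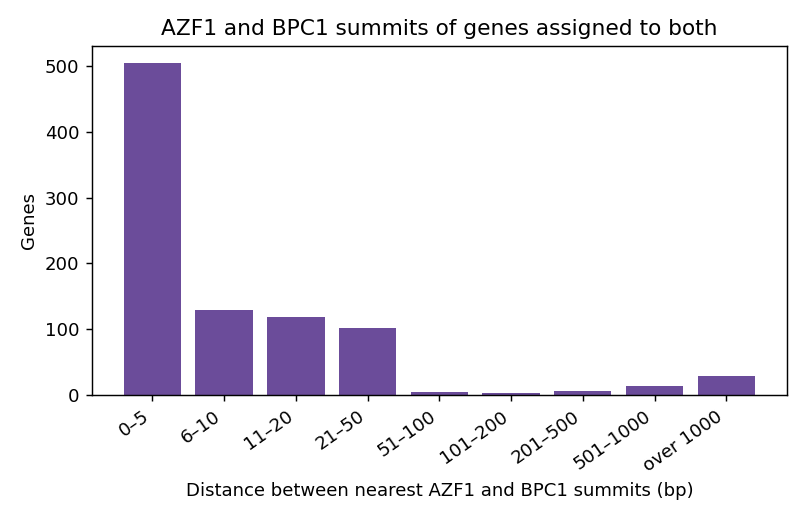
Number of genes assigned to both factors by the distance in bp between the nearest AZF1 and BPC1 summits of the gene. The first bar, 0 to 5 bp, holds 506 of the 907 genes, and 28 lie over 1000 bp apart.

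FIE was precipitated through another tag, from another accession and against another input. Where a BPC1-only gene had FIE, the nearest FIE and BPC1 summits were a median of 16 bp apart, and at most 50 bp apart in 263 of 330 genes (79.7%). In genes of both it was 11 bp from BPC1 and 12 bp from AZF1, with 88.2% and 84.3% at most 50 bp apart. In AZF1-only genes with FIE the median was 24 bp, and 137 of 217 genes (63.1%) had summits at most 50 bp apart. There 18.4% had them over 1000 bp apart, against 4.24% of BPC1-only genes. The median FIE fold was 6.40 (95% interval 6.11 to 6.77) at BPC1-only genes, 5.15 (4.86 to 5.51) at genes of both and 4.38 (4.21 to 4.52) at AZF1-only genes. Genes with FIE and neither factor had 4.68 (4.63 to 4.75).

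In the classes of a single factor, the share of genes at FIE was higher where the BPC1 fold was higher, and was nearly level over the AZF1 folds. With BPC1-only genes divided into tertiles by BPC1 fold, 35.1% had FIE in the lowest, 58.9% in the middle and 69.7% in the highest tertile. The mark was at 44.1%, 56.9% and 70.1% of these tertiles, and transcription factor genes made up 8.91%, 14.4% and 21.4%. Among AZF1-only genes the shares at FIE were 12.1%, 12.8% and 12.1% over the tertiles by AZF1 fold, and those at the mark were 30.7%, 24.4% and 24.7%. Among genes of both, tertiles by BPC1 fold had FIE in 37.8%, 43.0% and 64.5% of cases, and tertiles by AZF1 fold in 46.0%, 44.4% and 54.8%. These are shares in single pooled lists, and the order was not tested.

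**Figure D5:**
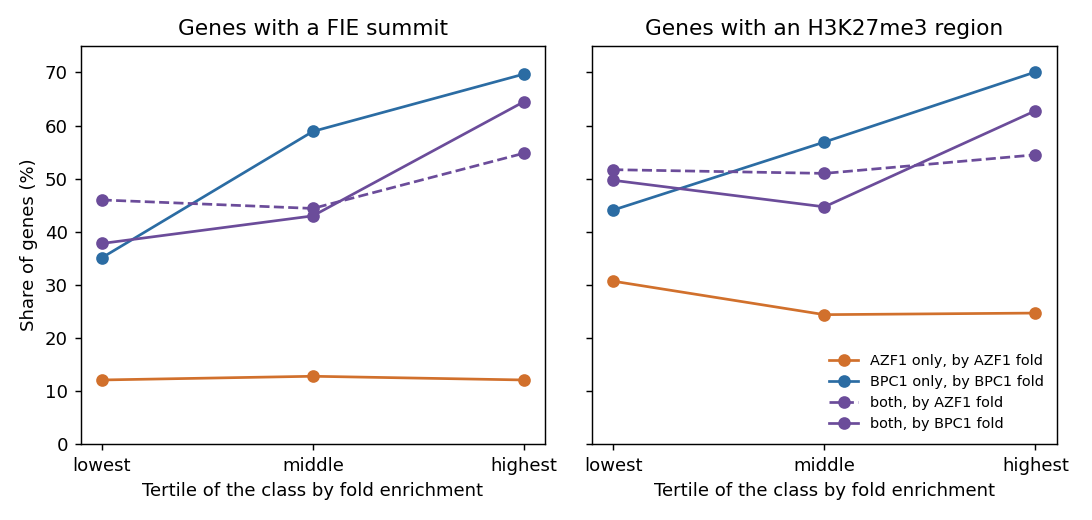
Share of genes (%) with a FIE summit (left) and with an H3K27me3 region (right) in tertiles of each class by fold enrichment; the colour gives the class and dashed purple the genes of both ordered by AZF1 fold. The share at FIE goes from 35.1% to 69.7% over the BPC1-only tertiles and lies between 12.1% and 12.8% over the AZF1-only tertiles.

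The classes also differed in form. BPC1-only genes had 2 or more BPC1 summits in 12.9% of cases, AZF1-only genes 2 or more AZF1 summits in 3.80%, and genes of both had 14.4% for AZF1 and 15.4% for BPC1. A summit lay inside the gene in 67.1% of BPC1-only, 63.2% of AZF1-only and 69.5% of both genes for each factor. AZF1-only genes were longer, with a median of 2410 bp (95% interval 2330 to 2490) against 2153 bp (2025 to 2272) for BPC1-only genes and 2306 bp for genes of both, while genes with neither had 2052 bp. Within the shortest tertile of target genes by length FIE was at 60.5% of BPC1-only and 12.8% of AZF1-only genes, and within the longest tertile at 43.8% and 11.3%. Genes in gene-poor windows (under 100 protein-coding genes in 1 Mb) made up 3.23% of AZF1-only, 2.81% of BPC1-only and 2.87% of both genes. Of AZF1-only genes, 53.2% shared their highest AZF1 summit with another AZF1-only gene, against 38.3% of BPC1-only genes for BPC1.

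The 1 kb limit cut through no gap in the data. The nearest AZF1 summit lay in the last 100 bp before the limit for 112 genes and in the first 100 bp past it for 116. For BPC1 these were 57 and 65 genes. Among AZF1-only genes, 46 (2.61%) had a BPC1 summit beyond 1 and up to 2 kb away, and among BPC1-only genes 37 (6.12%) had an AZF1 summit there. Up to 5 kb away it was 10.9% and 20.2%.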

How the data were processed

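Per the labels, 3 biological replicates each were made of AZF1, BPC1, FIE, H3K27me3 and histone H3 ChIP and of both inputs. Bowtie2, bedtools, MACS2 2.1.1.20160309 and build TAIR10 are named in the submitters' processing notes. Not given in the sources used here are their settings and the way replicates were combined. In the deposited lists the authors give each region a fold enrichment (a ratio over control), −log10 p, −log10 q and a score. The lists carry no replicates, so differences are described with 95% Wilson, Newcombe and order-statistic intervals and no test.

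Regions of the 5 nuclear chromosomes were assigned to the 27444 protein-coding genes of a RefSeq table (TAIR10.1, used for names and gene extents; no strand), leaving out 121 genes with chromosome 2 from 3 to 4 Mb. AZF1, BPC1 and FIE were assigned by summit and H3K27me3 by any overlap, both with 1 kb added at each end. The assignment was tested on simulated summits. Families were matched by symbol, 108 shared symbols were removed by hand, and 379 of 386 list symbols were found. Named genes were the 10 of highest fold in each class (rank sum for both), family and list members by fold, and the factors' own genes; families were taken in order of the difference in counts. Members and lists were chosen with earlier results of these data known. Region coordinates are 1-based. No genome sequence was used here, so promoter motifs and sequences were not analysed here. The lists hold no expression values, so the labelled plants could not be checked against marker genes. Python 3 with numpy, pandas and scipy was used. The result for 1 transcription factor family is not reported here.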

Additional observations from a re-analysis of the deposited data

How the results depend on the processing

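Over 9 other ways of assigning genes, the 3 differences in shares and the difference in median length kept their direction. Requiring the summit inside the gene gave 1140 AZF1-only genes and 604 of both, and points of difference of 36.5 for H3K27me3 and 14.4 for transcription factors. Regions above each list's median −log10 q gave 823, 386 and 373 genes of AZF1 only, BPC1 only and both, with 53.5 points for FIE and 16.9 for transcription factors. An AZF1 list as long as the BPC1 list gave 630 AZF1-only genes, fewer than its 890 BPC1-only genes. Summits within 2 kb gave 37.3 points for FIE and 8.07 for transcription factors. With chromosome 2 from 3 to 4 Mb kept, the points were 37.5 for FIE and 26.0 for H3K27me3. The cause of these shifts was not tested beyond what each setting leaves out or adds. The remaining 49 of 63 values stayed within 1.5 times the count or within the interval.

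Of 1350 counts of families and lists, 263 moved by over 1.5 times. The order of AZF1-only and BPC1-only counts was the same in all 9 settings for homeobox, C2H2, DOF, TCP, bHLH, EMB, CPK and CIPK, tubulin and actin, expansin, flower and meristem, and root genes. The planned promoter motif shares were not run. No paired analysis was possible because the lists pool the replicates. Depth is unknown, so absence from a list is no sign of absent binding.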
